A study of Mus musculus with 2 samples.

Results

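The genes described here are 10 genes that mark T cells and regulatory T cells: Cd3d, Cd3e, Cd3g, Cd4, Cd8a, Cd8b1, Foxp3, Ctla4, Icos and Lck. They were taken by symbol from the deposited expression table, and all 10 of them are among its 22740 genes. RNA sequencing was done on the whole uterus of 2 mice of the C57BL/6 strain on day 4 of pregnancy, 1 library per animal. The titles call both animals WT, no treatment or altered allele is given, and their age is not stated, so the libraries form 1 group and are called uterus 1 and uterus 2. Values are the authors' RPKM, read counts corrected for transcript length and library depth, which allows levels to be compared between genes of different length.

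T cells recognise peptide antigens through a receptor whose variable chains carry no signalling part of their own. The CD3 chains hold that part, the kinase Lck starts the signal, and the coreceptors CD4 and CD8 bring Lck to the receptor on helper and cytotoxic T cells. Regulatory T cells, which depend on the transcription factor Foxp3 and carry much Ctla4 and Icos, restrain other T cells and are known for their part in the tolerance of the mother toward the embryo around implantation.

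RPKM values conceal how few reads lie behind a low gene, so the reads were recovered from the values, which are whole numbers of reads over whole transcript lengths. The recovered totals were 3769497 reads for uterus 1 and 4189134 for uterus 2. The 13 genes fixed as a check of the tissue, among them Pgr, Krt8 and Col3a1, lay at means of 25.6 to 1924 RPKM and were all detected in both uteri. Intervals below are 95% Poisson intervals of the reads, or 95% exact (Clopper-Pearson) intervals for shares, and cover counting error only.

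The T cell genes lay low. The median of their mean levels was 0.661 RPKM, against 3.23 RPKM over all 22740 genes. Within each library the median of the 10 was 0.660 RPKM in uterus 1 and 0.616 RPKM in uterus 2. At 1 RPKM or more in both uteri, the threshold for calling a gene detected, 2 of the 10 passed (Lck and Cd3g), where 58.4% of all genes did. More than 3 reads in both uteri were held by 6 of the 10 (Lck, Cd3g, Cd3e, Cd4, Cd8a and Icos), where 63.1% of all genes held them. Icos counts among them only with the length chosen from the annotation, and 5 of the 10 remain at the smallest possible reads. Together the 10 genes held 110 reads in uterus 1 and 108 in uterus 2. That was 29.2 reads per 1000000 recovered reads (RPM, interval 24.0 to 35.2) and 25.8 RPM (21.1 to 31.1), and these intervals overlap. Lck alone gave 55 and 49 of these reads. In whole tissue, fewer T cells and less RNA per T cell cannot be told apart.

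**Figure D1:**
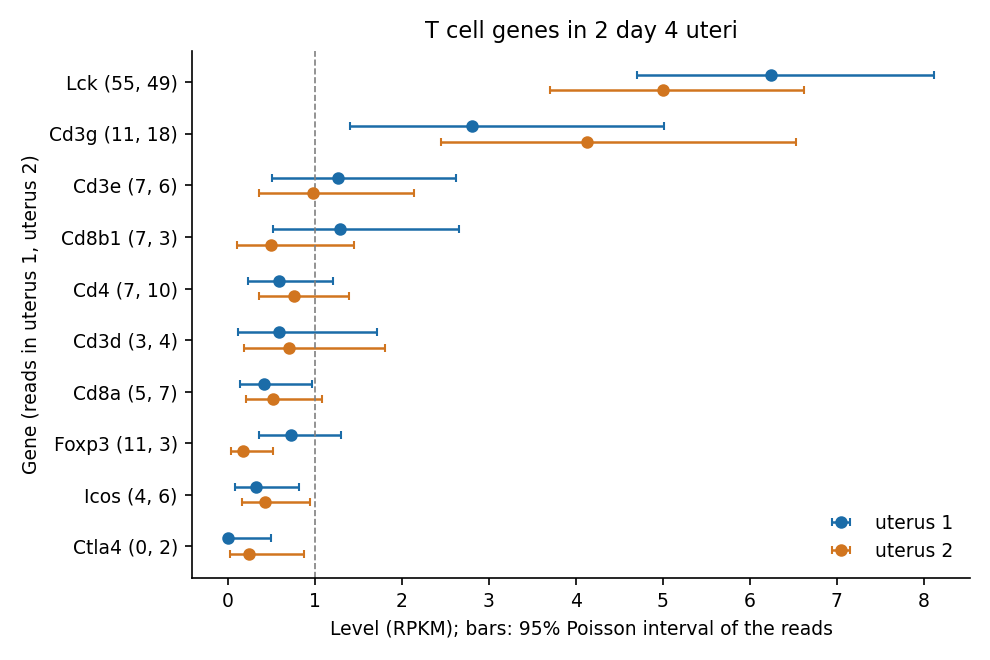
Level of each T cell gene in RPKM (horizontal axis) in uterus 1 and uterus 2, with 95% Poisson intervals of the reads as bars and the reads in brackets beside the name; the dashed line marks 1 RPKM. Lck and Cd3g lie above the line in both uteri, and the intervals of the 2 uteri overlap for every gene.

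The CD3 genes, the first step of signalling, are described first. Cd3g, Cd3d and Cd3e encode the gamma, delta and epsilon chains, which pair as epsilon with gamma and epsilon with delta in every T cell receptor. On mouse build NCBIM37 they lie side by side on chromosome 9: Cd3g (NM_009850, 44777655 to 44788514, minus strand), Cd3d (NM_013487, 44789869 to 44795135, plus strand) and Cd3e (NM_007648, 44806826 to 44817673, minus strand). Cd3g and Cd3d are transcribed away from each other from starts 1355 bases apart. The 250 bases upstream of the deposited start are shown for these 3 neighbours and for Lck, the highest of the 10 genes. They were read from the NCBIM37 genome and are written along the gene's own strand, 5′ to 3′, with every match to the ETS, RUNX, GATA, TCF and LEF, Ikaros or TATA box motifs given further on in capitals.
Cd3g, chr9:44788515-44788764, minus strand: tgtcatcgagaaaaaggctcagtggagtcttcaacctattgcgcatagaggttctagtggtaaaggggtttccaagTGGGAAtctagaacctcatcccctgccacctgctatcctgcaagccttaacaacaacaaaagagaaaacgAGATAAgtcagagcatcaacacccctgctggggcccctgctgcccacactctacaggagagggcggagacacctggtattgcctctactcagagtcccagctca
Cd3d, chr9:44789619-44789868, plus strand: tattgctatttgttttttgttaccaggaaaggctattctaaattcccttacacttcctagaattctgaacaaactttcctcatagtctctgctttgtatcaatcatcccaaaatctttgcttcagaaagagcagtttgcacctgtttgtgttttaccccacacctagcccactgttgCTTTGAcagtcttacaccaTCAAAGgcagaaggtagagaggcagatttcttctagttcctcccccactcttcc
Cd3e, chr9:44817674-44817923, minus strand: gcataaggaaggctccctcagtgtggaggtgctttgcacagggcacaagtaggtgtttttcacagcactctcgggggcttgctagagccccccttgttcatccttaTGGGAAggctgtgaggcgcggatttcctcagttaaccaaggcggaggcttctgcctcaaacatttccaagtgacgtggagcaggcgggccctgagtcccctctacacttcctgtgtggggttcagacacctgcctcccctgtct
Lck, chr4:129235617-129235866, minus strand: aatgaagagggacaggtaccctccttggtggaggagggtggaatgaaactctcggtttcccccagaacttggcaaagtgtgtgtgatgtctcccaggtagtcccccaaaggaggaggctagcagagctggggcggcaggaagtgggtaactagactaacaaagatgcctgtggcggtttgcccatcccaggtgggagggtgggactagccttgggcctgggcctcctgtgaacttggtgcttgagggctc

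The level of Cd3g was 2.80 RPKM (uterus 1) and 4.13 RPKM (uterus 2), on 11 and 18 reads, a mean of 3.47 ± 0.940 RPKM (SD, n = 2). Cd3e lay at 1.27 and 0.982 RPKM on 7 and 6 reads (mean 1.13 ± 0.205), just above the detection threshold in uterus 1 and just below it in uterus 2. Cd3d lay at 0.588 and 0.707 RPKM on 3 and 4 reads (mean 0.647 ± 0.0837). Cd3g was the highest of the 3 chains in both uteri, and its values did not overlap those of Cd3e or Cd3d. Per base of transcript and over the reads of both uteri, Cd3g stood 5.39 times above Cd3d (interval 2.31 to 14.6) and 3.13 times above Cd3e (1.58 to 6.56). Cd3e stood 1.72 times above Cd3d, with an interval of 0.638 to 5.09 that includes equal levels. The fourth CD3 gene, Cd247, encodes the zeta chain and lies elsewhere. It was at 0.906 and 0.612 RPKM on 4 and 3 reads, 0.672 times Cd3e with an interval of 0.227 to 1.81 that includes equal levels.

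No other annotated gene shares exon bases with any of the 3 CD3 genes. On the Cd3g side the next gene is Ube4a, 3971 bases away on the same strand, at 15.5 and 15.1 RPKM. Beyond Cd3e it is Mpzl2, 32753 bases away on the other strand, at 6.41 and 4.68 RPKM. Both neighbours lay above all 3 CD3 genes in both uteri.

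**Figure D2:**
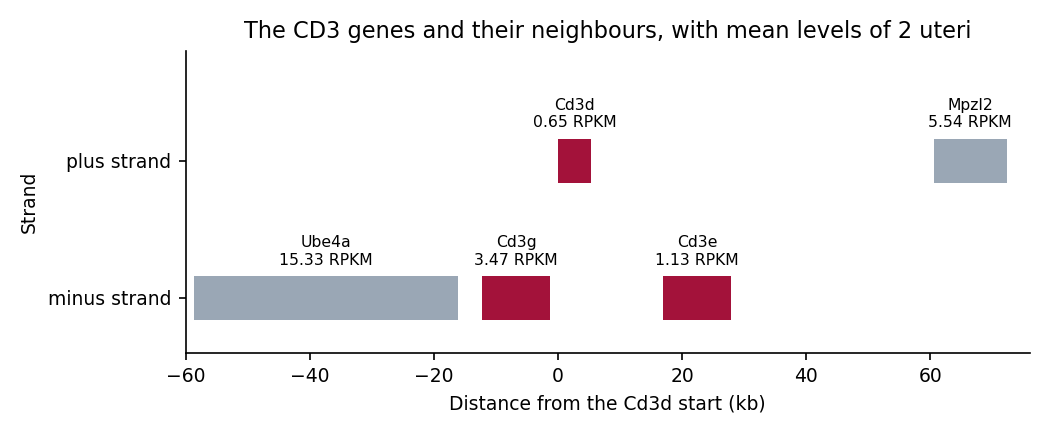
The CD3 genes (red) and their nearest neighbours (grey) by strand, against distance from the Cd3d start in kilobases, with the mean RPKM of the 2 uteri over each bar. Cd3g, at 3.47 RPKM, starts next to Cd3d, at 0.65 RPKM.

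Lck (NM_001162432, chromosome 4, 129225588 to 129235616, minus strand) encodes the Src family kinase that phosphorylates the CD3 chains. It was the highest of the 10 genes in each uterus, at 6.24 and 5.01 RPKM on 55 and 49 reads, a mean of 5.63 ± 0.871 RPKM (SD, n = 2). Its level was 1.60 times that of Cd3g (interval 1.05 to 2.50) and stood above Cd3e by 4.91 times in uterus 1 and 5.10 times in uterus 2 (interval over both 2.80 to 9.70). Zap70, the kinase that binds the phosphorylated chains, lay at 1.44 and 1.40 RPKM on 12 and 13 reads, and Lck stood 3.95 times above it (2.53 to 6.38). Lat, the membrane adaptor that Zap70 phosphorylates, lay at 1.27 and 2.28 RPKM on 6 and 12 reads. Lcp2, the cytosolic adaptor that joins Lat and is shared with myeloid cells, lay at 4.52 and 4.70 RPKM on 58 and 67 reads.

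Within the Src family, Fyn, Lyn, Src and Yes1 lay above Lck in both uteri. Fyn, the related kinase that is found in many cell types, lay at 29.1 and 27.0 RPKM, and Lck stood at 0.200 times its level (interval 0.161 to 0.245). Lyn lay at 15.8 and 20.5 RPKM, Src at 14.6 and 16.1 RPKM and Yes1 at 14.3 and 17.0 RPKM. Fgr lay at 2.34 and 2.46 RPKM and Blk, a B cell member, at 1.90 and 2.75 RPKM, both below Lck in each uterus. Csk, which holds these kinases inactive, lay at 23.9 and 24.5 RPKM. None of these 7 genes was called different between the uteri by the exact binomial test of reads described further on.

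The coreceptor genes lay under 1 RPKM on average. Cd4 (NM_013488, chromosome 6, 124814711 to 124838227, minus strand) encodes the helper T cell coreceptor for MHC class II. It lay at 0.590 and 0.759 RPKM on 7 and 10 reads, a mean of 0.675 ± 0.120 RPKM (SD, n = 2). Cd8a and Cd8b1 encode the alpha and beta chains of the class I coreceptor of cytotoxic T cells. They are neighbours on the plus strand of chromosome 6 (NM_009857, 71323421 to 71329165, and NM_009858, 71272806 to 71287445), with 35975 bases between them. Cd8a lay at 0.417 and 0.525 RPKM on 5 and 7 reads (mean 0.471 ± 0.0770). Cd8b1 lay at 1.29 and 0.498 RPKM on 7 and 3 reads (mean 0.894 ± 0.560), above Cd4 in uterus 1 and below it in uterus 2.

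Cd4 stood 1.43 times above Cd8a, with an interval of 0.645 to 3.29, and the ratio was 1.42 in uterus 1 and 1.44 in uterus 2. Cd8b1 stood 1.84 times above Cd8a (0.713 to 4.65), at 3.09 times in uterus 1 and 0.947 times in uterus 2. Both intervals include equal levels, so no order of the coreceptors could be read at this depth. The genes next to them lay higher: Rmnd5a at 33.8 and 37.2 RPKM beside Cd8a, Krcc1 at 23.0 and 31.4 RPKM beside Cd8b1, and Gpr162 at 5.17 and 4.39 RPKM, 775 bases from Cd4 on the same strand. On the other side of Cd4, 16149 bases away, Lag3, an inhibitory receptor related to CD4, lay at 0.911 and 0.821 RPKM on 7 reads in each uterus. The transcription factors that set the choice between CD4 and CD8, Zbtb7b and Runx3, lay at 12.0 and 13.4 RPKM and at 1.07 and 1.09 RPKM, and both are also used outside T cells.

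The 3 genes of regulatory and activated T cells had the lowest means of the 10, although Foxp3 lay above Cd4, Cd3d and Cd8a in uterus 1. Foxp3 (NM_001199348, chromosome X, 7157609 to 7172369, plus strand), the defining transcription factor of regulatory T cells, lay at 0.730 and 0.179 RPKM on 11 and 3 reads (mean 0.455 ± 0.390, SD, n = 2). Icos (NM_017480, chromosome 1, 61034758 to 61057164, plus strand), a costimulatory receptor, lay at 0.321 and 0.433 RPKM (mean 0.377 ± 0.0796). Its values fit 4 and 6 reads with the annotated transcript length, and 2 and 3 reads are the fewest they allow. Ctla4 (NM_009843, chromosome 1, 60965869 to 60972674, plus strand), the inhibitory receptor that competes with Cd28 for its ligands, was listed at 0 in uterus 1 and lay at 0.243 RPKM on 2 reads in uterus 2. A count of 0 allows up to 3 reads in uterus 1, which is 0.405 RPKM for Ctla4, and the two-sided Poisson interval drawn in the plot of levels reaches 0.498 RPKM. Rpl26, a gene of the ribosome needed in nearly all cells, is also listed at 0 in both uteri, so a listed 0 was not taken as absence.

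Foxp3 was the 1 gene of the 10 whose exons overlap those of other genes. Of its 3953 annotated exon bases, 857 (21.7%) are shared: 590 with Ccdc22 and 373 with Ppp1r3f, both on the opposite strand, and 267 with 4930524L23Rik on the same strand. These exons are those of GENCODE M1, and the deposited span of Ppp1r3f ends 6362 bases before Foxp3. Ccdc22 held 67 and 50 reads, Ppp1r3f 13 and 6, and 4930524L23Rik 7 and 4, each with a lower RPKM in uterus 2, as Foxp3 had. Whether the counting used strand is not given in the sources used here, and the part of these genes in the Foxp3 reads was not tested. The Foxp3 level was 0.649 times that of Cd4, with an interval of 0.296 to 1.40, at 1.24 times in uterus 1 and 0.236 times in uterus 2.

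Ctla4, Icos and Cd28 form a cluster on chromosome 1, all on the plus strand. Ctla4 and Icos are separated by 62083 bases, and Cd28, the main costimulatory receptor of T cells, lies 135665 bases before Ctla4. Cd28 lay at 0.423 and 0.653 RPKM on 7 and 12 reads. All 3 genes of the cluster were under 1 RPKM in both uteri, and each had its higher value in uterus 2. Ctla4 stood at 0.337 times Icos, with an interval of 0.0359 to 1.58 that includes equal levels.

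In order of mean level the 10 genes were Lck, Cd3g, Cd3e, Cd8b1, Cd4, Cd3d, Cd8a, Foxp3, Icos and Ctla4. Among the 17426 genes above 0 in at least 1 uterus, Lck stood at the 44.4th percentile and Cd3g at the 35.8th. The other 8 stood between the 5.90th (Ctla4) and the 22.7th (Cd3e). Only the step from Cd3g to Cd3e separated neighbours whose intervals over the reads of both uteri did not overlap (2.35 to 5.03 RPKM against 0.596 to 1.91 RPKM). From Cd3e down to Ctla4, each gene's interval overlapped that of the next, so neighbours in that stretch are not resolved, while the interval of Cd3e lay wholly above that of Ctla4 (0.0155 to 0.462 RPKM). The interval of Lck, 4.57 to 6.78 RPKM, overlapped that of Cd3g, but the interval of their ratio given above, 1.05 to 2.50, does not include equal levels.

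**Figure D3:**
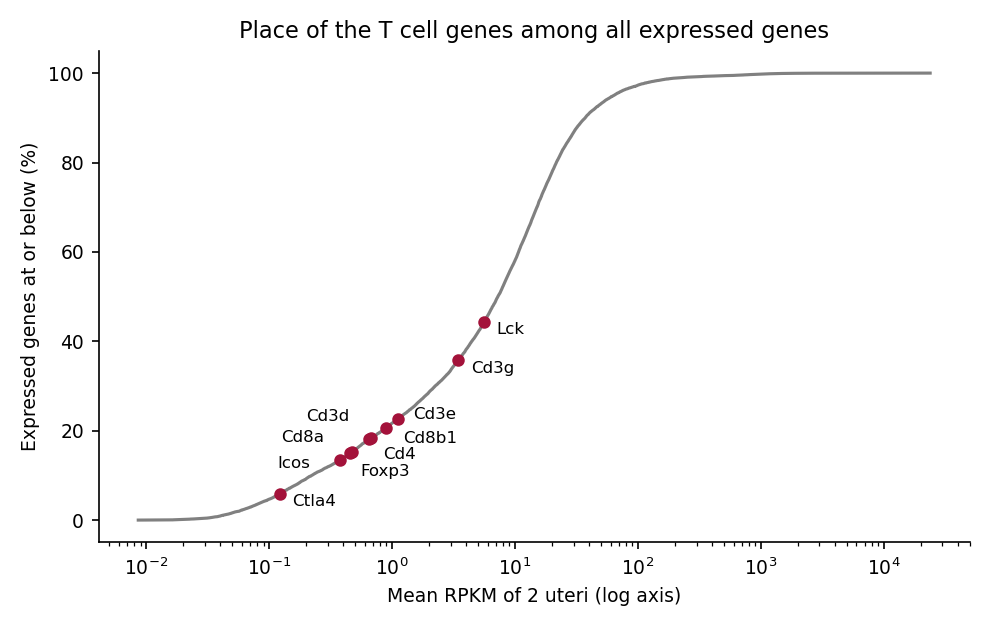
Share of the 17426 expressed genes at or below a given level (vertical axis, percent) against mean RPKM of the 2 uteri on a log axis; red points are the T cell genes. All 10 lie below the middle of the expressed genes, Lck at the 44.4th percentile and Ctla4 at the 5.90th.

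The second comparison asked how far the 2 animals differed. Reads of each gene were compared by a two-sided exact binomial test against the library totals, for genes with at least 6 reads in sum, and Benjamini-Hochberg adjusted over all 15110 genes tested. It compares these 2 libraries, not conditions. Of the 9 T cell genes with enough reads, 0 were called at an adjusted p under 0.05, where 4.63% of all tested genes were. Foxp3 was the 1 gene of the 9 with an unadjusted p under 0.05. Its log2 ratio of uterus 2 over uterus 1, after adding 0.1 RPKM to each value, was -1.57, with p = 0.0289 in the exact binomial test and 0.246 after adjustment. Cd8b1 had the next largest ratio among the 9 tested, -1.22 (exact binomial test, adjusted p = 0.626). Lck had -0.31 (0.704) and Cd3g 0.54 (0.768), and the adjusted p of the other 5 ran from 0.927 to 1.0 in the same exact test.

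The median log2 ratio of the 10 genes was 0.25, against 0 over all genes, with 6 higher in uterus 2 and 4 higher in uterus 1. Over Lck, Cd3g and Cd3e, the 3 genes whose mean reached 1 RPKM, it was -0.31, so no direction is given. The added 0.1 RPKM understates ratios of genes this low. At 7 to 29 reads a gene, as 8 of the 9 tested genes had, a moderate difference between the uteri was not detectable at this depth, and a missed threshold does not show equal levels.

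**Figure D4:**
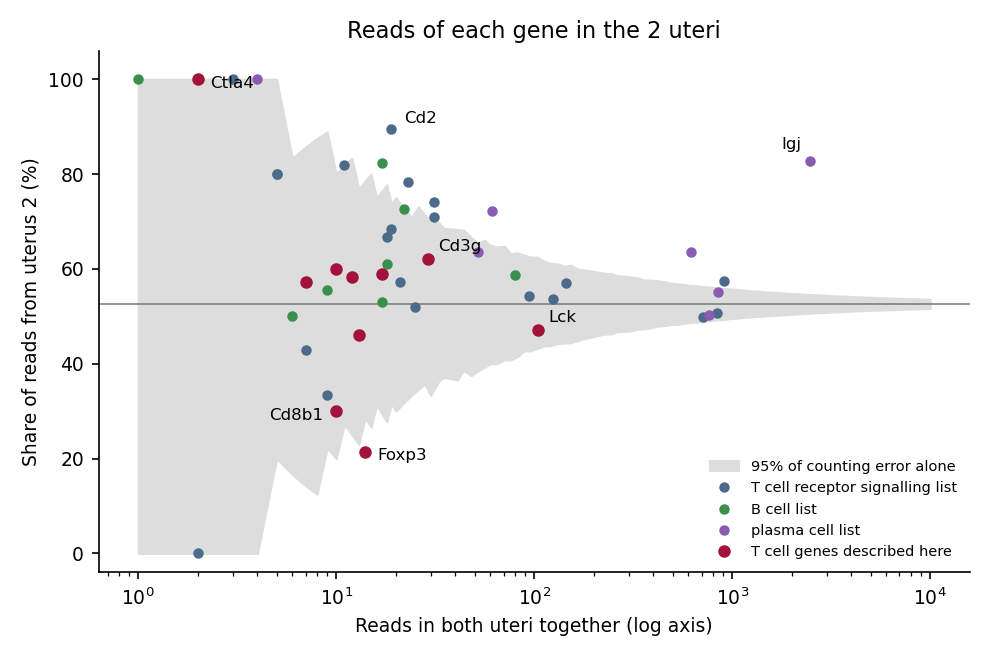
Share of each gene's reads that came from uterus 2 (vertical axis, percent) against its reads in both uteri together (log axis), for the T cell genes (red) and 3 comparison lists; the grey band holds 95% of counting error alone around the share of all reads. Of the labelled genes, Cd2 and Igj were called higher in uterus 2, while Foxp3, at 11 and 3 reads, lies just outside the band and was not called after adjustment.

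Other genes of the receptor complex and its signalling were read from a list of 25, of which 22 were matched in the table. The receptor constant regions Trac, Trbc1 and Trbc2 were not analysed here. Of the 22, 9 were detected in both uteri, and the median of the 22 was 1.28 RPKM against 3.23 RPKM over all genes. Within each library it was 0.759 RPKM in uterus 1 and 1.68 RPKM in uterus 2, so it moves by over 1.5 times without uterus 2. Thy1, which fibroblasts and nerve cells also carry, was highest at 53.8 and 48.1 RPKM, then Fyn, then Ptprc, the CD45 phosphatase of all leukocytes, at 17.7 and 21.6 RPKM. Several members that are more restricted to T cells lay under 1 RPKM: Cd5 at 0.756 and 0.341 RPKM, Cd6 at 0.172 and 0.697 RPKM, Themis at 0.197 and 0.236 RPKM and Ubash3a at 0.0883 and 0.318 RPKM. Cd6, Themis and Ubash3a were below all 3 CD3 genes in both uteri, and Cd5 was so in uterus 2. Trat1, an adaptor that binds the receptor, held 2 reads in uterus 1 and was listed at 0 in uterus 2.

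Of the 18 of these genes with enough reads, the exact binomial test called 1 higher in uterus 2 and 0 higher in uterus 1, where 2.10% and 2.53% of all tested genes were called. The gene was Cd2, an adhesion receptor of T cells and natural killer cells, at 0.456 RPKM in uterus 1 (2 reads) and 3.49 RPKM in uterus 2 (17 reads), a log2 ratio of 2.69 with an adjusted p of 0.0257 in the exact binomial test. The summed reads of the 3 CD3 genes were 21 and 28, which is 5.57 RPM (interval 3.45 to 8.52) and 6.68 RPM (4.44 to 9.66), and these intervals overlap. With fewer than 20 reads in sum, Cd2 falls out of the test at the stricter limit of 20.

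Ptprc gives the leukocyte scale. It held 385 and 521 reads and stood 3.53 times above Lck (interval 2.88 to 4.37), 5.64 times above Cd3g (3.90 to 8.47) and 17.7 times above Cd3e (10.3 to 33.3). Ptprc was 102 RPM (92.2 to 113) in uterus 1 and 124 (114 to 136) in uterus 2, while the 9 T cell genes without Lck gave 14.6 (11.0 to 19.0) and 14.1 (10.7 to 18.2). The Ptprc intervals of the uteri do not overlap, but Ptprc itself was not called different (exact binomial test, p = 0.0034, 0.0658 after adjustment).

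Genes of T cell identity and of the naive or memory state, 16 in the list, were higher as a group, with 12 detected in both uteri and a median of 4.33 RPKM. Most of those at high level also serve other cells: Ets1 at 23.2 RPKM in each uterus, Cd44 at 18.4 and 16.7 RPKM, and S1pr1, which endothelium also uses, at 16.9 and 18.8 RPKM. Bcl11b, which T cells need for their identity, lay at 0.428 and 0.386 RPKM on 13 reads in each uterus. Gata3 lay at 0.162 and 0.658 RPKM on 2 and 9 reads, and Ccr7, the receptor that leads naive T cells to lymph nodes, at 0.264 and 0.238 RPKM on 2 reads in each. Il7r, the interleukin 7 receptor, lay at 1.71 and 1.98 RPKM. None of the 15 tested genes of this list was called between the uteri by the exact binomial test.

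Of 20 further genes linked to regulatory T cells, 12 were detected in both uteri, and the median was 2.15 RPKM. The highest were Entpd1 at 29.3 and 32.3 RPKM and Nt5e at 23.9 and 27.1 RPKM, enzymes that turn ATP into adenosine and that stromal and vascular cells also carry. Tgfb1 lay at 8.59 and 7.85 RPKM, Lrrc32, which presents its latent form, at 8.13 and 7.94 RPKM, and Tnfrsf18 at 7.25 and 5.83 RPKM. Il2ra, the CD25 chain by which regulatory T cells bind interleukin 2, lay at 0.648 and 0.849 RPKM on 11 and 16 reads. Ikzf2, the factor Helios, lay at 5.01 and 5.24 RPKM, and Tigit at 1.90 and 2.20 RPKM on 7 and 9 reads. Ccr8 and Il10 were listed at 0 in both uteri, and Folr4, the receptor FR4, held 1 read in uterus 2. The exact binomial test called 0 of the 16 tested genes.

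Of the 11 genes of the CD28 family and its ligands, 5 were detected in both uteri, with a median of 1.27 RPKM, and 0 of the 10 tested were called by the exact binomial test. Tnfrsf14, the partner of Btla, lay at 13.7 and 9.74 RPKM, and Icosl, the ligand of Icos, at 6.07 and 6.50 RPKM on 64 and 76 reads, above Icos itself. Btla lay at 1.85 and 2.11 RPKM, and Cd274, the ligand PD-L1, at 1.43 and 1.49 RPKM. The Ctla4 and Cd28 ligands Cd86 and Cd80 lay at 1.13 and 1.57 RPKM and at 0.460 and 2.07 RPKM. The receptor Pdcd1 lay at 0.811 and 0.852 RPKM on 6 and 7 reads.

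Effector genes of helper and cytotoxic T cells, 23 in the list, had a median of 0.573 RPKM, and 8 were detected in both uteri. The median was 0.309 RPKM in uterus 1 and 0.829 RPKM in uterus 2, so it moves by over 1.5 times without uterus 2. The cytokines Ifng, Il2, Il17f and Il22 and the granzyme Gzmk were listed at 0 in both uteri, while Il4, Il5, Il13, Il17a and Il21 held between 1 and 4 reads in sum. Of the lineage factors, Bcl6 lay at 7.78 and 9.87 RPKM, Eomes at 0.842 and 1.33 RPKM and Tbx21 at 0.920 and 0.829 RPKM. The cytotoxic genes Gzma, Gzmb, Nkg7 and Prf1, which natural killer cells share, had means from 1.55 to 4.22 RPKM. None of the 11 tested genes was called by the exact binomial test.

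Since Lck, Zap70, Cd2 and the cytotoxic genes also serve natural killer cells, and Cd4 and Cd8a also mark some dendritic cells, markers of those cells are given beside them. Of 10 natural killer cell markers, 7 were detected in both uteri and 2 (Klra8 and Klra4) were listed at 0. Their summed level was 18.7 RPKM in uterus 1 and 26.6 RPKM in uterus 2, against 14.3 and 13.5 RPKM for the 10 T cell genes. The highest by mean were Klrd1 at 3.61 and 6.24 RPKM and Ncr1, the receptor NKp46, at 4.99 and 3.69 RPKM. Both lay in the range of Lck and Cd3g, while Klrb1c, Klrk1, Itga2 and Klri2 lay below Cd3g in both uteri. All 10 dendritic cell markers were detected, with a summed level of 163 and 182 RPKM that is mostly H2-Ab1 at 132 and 151 RPKM. Clec9a and Xcr1, which mark the dendritic cells that carry Cd8a in lymphoid organs, lay at 2.06 and 2.21 RPKM and at 1.87 and 1.32 RPKM, above Cd8a in each uterus. The part of natural killer and dendritic cells in the T cell gene reads was not tested.

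The 8 B cell markers had a median of 0.957 RPKM and a summed level of 8.48 and 14.0 RPKM, with 7 of 8 higher in uterus 2 and 0 of 7 called by the exact binomial test. Blnk, the highest by mean, lay at 4.10 and 5.27 RPKM, Cd79a at 1.18 and 2.83 RPKM and Cd79b at 0.653 and 2.75 RPKM. Ms4a1, the CD20 surface protein, lay at 0.380 and 0.343 RPKM and was the 1 marker higher in uterus 1. The 7 plasma cell markers had a summed level of 190 and 419 RPKM. Of these, Igj (53.2 and 229.7 RPKM, exact binomial test, adjusted p = 3.7e-214) and Xbp1 (79.0 and 124 RPKM, adjusted p = 4.9e-06) were called higher in uterus 2. All 11 macrophage and monocyte markers were detected, with a median of 18.3 RPKM and a summed level of 369 and 390 RPKM. Ccr2 of that list was called higher in uterus 2, on 265 and 382 reads (exact binomial test, adjusted p = 0.0282). Of the 9 mast cell and granulocyte markers matched, 6 were detected, with a median of 2.96 RPKM and 0 of 5 called. Of the 13 uterine tissue genes, 5 were called by the exact binomial test, against 4.63% of all tested genes. Krt18 of the epithelium and Myh11 of smooth muscle were higher in uterus 2, while Pgr, the progesterone receptor, Col1a2, a collagen chain, and Acta2, smooth muscle actin, were higher in uterus 1. Their log2 ratios ran from -0.22 for Pgr to 0.42 for Krt18.

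**Figure D5:**
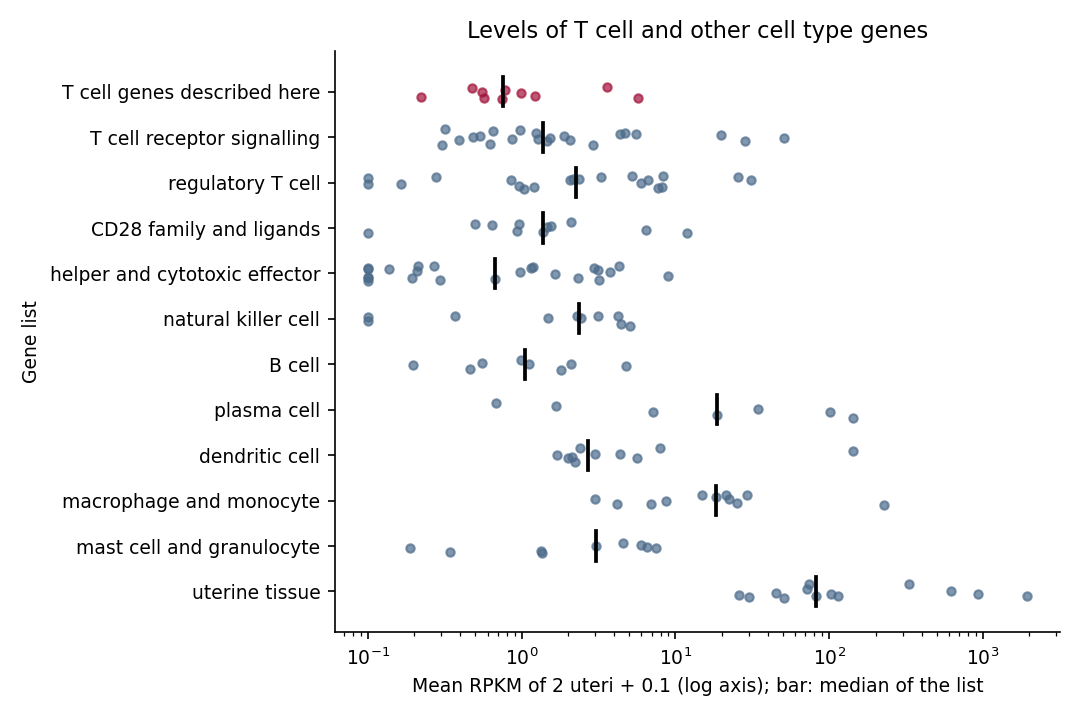
Mean RPKM of the 2 uteri plus 0.1 (horizontal log axis) for every gene of each list, 1 point per gene, with the list's median as a bar. The median of the T cell genes, 0.661 RPKM, lies below the medians of the natural killer, dendritic, plasma cell, macrophage and uterine tissue lists.

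What the 10 genes share upstream was read from the 250 bases before each deposited start, beside the same windows of 22663 genes. The GC content of the 10 windows ran from 41.2% to 58.0% with a median of 48.8%, and the median of all windows was 55.6%. On both strands, the TATA box letters TATAAA were in 0 of the 10 windows and in 11.9% of all windows. The ETS motif CCGGAA was in 0 of the 10 (15.3% of all), and the RUNX motif TGTGGT in 1, Icos (12.1%). The GATA motif AGATAA was in Cd3g and Foxp3 (8.92%), and the TCF and LEF motif CTTTGA in Cd3d and Cd8b1 (12.8%). The Ikaros motif TGGGAA was in Cd3e, Cd3g and Cd8a (20.8%).

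In the windows printed above, Cd3d holds 2 TCF and LEF matches, 73 and 54 bases before its start, which face opposite ways. Cd3g holds an Ikaros match 174 bases and a GATA match 104 bases before its start, and Cd3e an Ikaros match 144 bases before its own. The printed Lck window holds none of these 6 motifs. The E protein motif CANNTG, not set in capitals because it is so common, was in 9 of the 10 windows, all but Cd8b1, and in 62.1% of all windows. The searched motifs were allowed to overlap, and a match describes letters in the window and not a bound site.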

How the data were processed

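RNA from whole uteri of 2 mice was sequenced from 1 microgram of total RNA, per the labels' protocols. The deposited values are RPKM, to which the authors normalized each gene per the labels. The submitters' processing notes name TopHat, edgeR and mm9. The counting program, its use of strand and the annotation release are not given in the sources used here. Both deposited tables hold the same values for all 22740 genes. Deposited starts were read as counted from 0, since 12380 of 21203 matched genes had a GENCODE M1 transcript start 1 base later. Coordinates are printed counted from 1 on NCBIM37, which corresponds to mm9.

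Single-exon genes of known length at 1 read gave scaling totals of 3834174 and 4256101. With these, 17424 of the 17426 genes above 0 came out as whole reads over a whole length of at most 30000 bases, within a relative tolerance of 1e-12. A factor common to reads and length was set by the annotated length (within 0.05 in natural log). For 5174 genes none was near, and the smallest reads were kept.

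A two-sided exact binomial test (scipy 1.17.1) compared the libraries, with a minimum of 6 reads, Benjamini-Hochberg adjusted, and it was tested on simulated data. Alternatives were other thresholds, pseudocounts, filters, scales, read totals and each library alone. The named genes are the 10 members, the genes of the fixed lists (at least the 3 highest and any called, with others as examples) and the nearest genes on each side. Some genes of these lists are not reported here by name. With 2 libraries no likeness of pattern could be measured. The members and lists were chosen with earlier results of these data known. The libraries come from separate animals, per the labels' design text.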

Additional observations from a re-analysis of the deposited data

How the results depend on the processing

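The count of T cell genes detected depended on the threshold: it was 2 at 1 RPKM, 5 at 0.5 RPKM, 6 on the TPM scale and 6 by more than 3 reads (5 at the smallest possible reads, an alternative added after seeing the data), while 2 RPKM gave 2 again. Taking either uterus alone gave 2 to 4, the upper value from uterus 1, where Cd3e and Cd8b1 also pass. The median level was 0.616 to 0.660 RPKM with either uterus alone, and 1.56 on the TPM scale, which changes the unit. The median log2 ratio was 0.11 with a pseudocount of 1 RPKM and -0.31 when the mean had to reach 1 RPKM, which leaves 3 genes. The number of T cell genes called different stayed at 0 under the 3 alternatives of the exact binomial test, with 2 genes left to test at 20 reads. Over all genes it called 580 to 720, against 699. All 30 ratios of single T cell genes kept their sign under other pseudocounts and the TPM scale, though the size for Ctla4 ran from 0.31 to 4.66. For a single gene, the step from the mean of 2 uteri to either alone is under 1 SD by construction. Depth limits these values, with 2 to 104 reads a gene. No paired analysis was possible because all samples belong to a single group.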

Other observations

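Chemokines that attract T cells were mostly low. Of 11, 3 were detected in both uteri and the median was 0.228 RPKM. Cxcl12, which stromal cells make, lay at 27.7 and 25.4 RPKM, Cxcl16 at 7.99 and 8.73 RPKM and Cxcl10 at 1.66 and 1.28 RPKM. Ccl19, Ccl20, Ccl21a and Ccl28 were listed at 0 in both uteri, and the exact binomial test called 0 of the 4 tested. Of the 5 genes of lymph node stroma, Ccl21a and Madcam1 were listed at 0, and Mfge8, which other cells also make, lay at 54.7 and 48.0 RPKM. Cxcl13, which draws B cells, was called higher in uterus 2 (0.673 and 3.64 RPKM on 3 and 18 reads, exact binomial test, adjusted p = 0.0445).

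Among 7 matched genes linked to gamma delta T cells, 4 were detected. Zbtb16 lay at 27.0 and 22.7 RPKM and Sox13 at 13.0 and 10.7 RPKM, and both are also used outside T cells. Cd163l1 lay at 4.68 and 4.08 RPKM, and Il23r at 0.524 and 0.661 RPKM on 5 and 7 reads. Of the 6 tested, 0 were called by the exact binomial test. The receptor constant genes Trdc and Tcrg-C1 were not analysed here. Of 7 genes linked to innate lymphoid cells, 5 were detected. Il18r1, the interleukin 18 receptor that T cells, natural killer cells and innate lymphoid cells carry, was called higher in uterus 2, at 1.36 and 3.10 RPKM on 25 and 63 reads (exact binomial test, adjusted p = 0.0126).

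Of 12 microRNA hairpins known from T cells, 11 were matched in the annotated table, and none held more than 3 reads in both uteri. Mir155, Mir150, Mir223, Mir31 and Mir182 held 0 reads. Mir181a-2 held 6 and 0 reads, and Mir181b-2 held 3 and 2.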
